A study of Rattus norvegicus with 16 samples.

Results

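The inner root sheath keratins Krt25, Krt27, Krt71, Krt72 and Krt73 were followed across 16 Affymetrix arrays of rat mammary gland RNA. The genes were chosen by symbol, with earlier results of these arrays in view, and levels are given for 1 probe set a gene. The platform annotation named 4 of the 5 genes, out of 14324 symbols in all, by 1 probe set each (10747051 for Krt25, 10747067 for Krt27, 10907438 for Krt72 and 10907448 for Krt73). Krt71 has no probe set under that name here and was not analysed. The arrays come from female Wistar Han rats whose mothers were gavaged daily from gestational day 1 to postnatal day (PND) 21. The exposed groups received genistein, a soy isoflavone that binds estrogen receptors, vinclozolin, a fungicide with antiandrogenic action, or a mixture of both. The daily dose of either compound, alone or combined, was 1 mg/kg of body weight. The control group is labelled as untreated, with no vehicle named. All animals were on a purified diet without phytoestrogens and were sampled at PND35 or PND50. Treatment and age made 8 groups with 2 arrays apiece, and every array carried RNA of 5 animals combined. P-values thus reflect how far pools of the same group lie apart, taken over all 8 groups and not only those compared. For each gene this spread is drawn toward that of the other genes, and 2 pools limit the precision.

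A hair follicle builds its shaft inside a stiff sleeve, the inner root sheath, which moulds the growing hair and is broken down before the hair leaves the skin. The sheath has keratins of its own, which pair as a type I and a type II chain to form filaments. Krt25 and Krt27 are type I keratins, and Krt71, Krt72 and Krt73 are type II keratins. In human follicles the products of KRT25, KRT27, KRT28 and KRT71 occur in all layers of the sheath, whereas those of KRT26, KRT72 and KRT73 mark its cuticle, the layer next to the hair. Hair follicles lie in the skin over the gland and are not part of the mammary epithelium.

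The promoters of the 4 measured keratins, which were high in the same pools, are shown to set the genes side by side. The sequences are RefSeq's, build GRCr8, and run 5′ to 3′ on the gene's strand from 250 bases before to 50 bases after the annotated start. Capitals mark matches on either strand. The motifs searched were TATAAA, a form of the TATA box, and TAATTA, a core bound by homeodomain proteins that reads alike on both strands. A variant of that core, CAATTA, was searched too, as was the core of GATA factors, GATAAG. The Krt25 window is chr10:84771148-84771447, that of Krt27 is chr10:84800082-84800381, that of Krt72 is chr7:134799498-134799797 and that of Krt73 is chr7:134814979-134815278, all on the minus strand.
Krt25: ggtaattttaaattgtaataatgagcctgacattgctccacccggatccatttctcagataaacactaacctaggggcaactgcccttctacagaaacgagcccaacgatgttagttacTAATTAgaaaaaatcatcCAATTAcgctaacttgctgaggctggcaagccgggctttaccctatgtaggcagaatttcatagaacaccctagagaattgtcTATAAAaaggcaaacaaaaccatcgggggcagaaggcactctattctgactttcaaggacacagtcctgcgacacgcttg
Krt27: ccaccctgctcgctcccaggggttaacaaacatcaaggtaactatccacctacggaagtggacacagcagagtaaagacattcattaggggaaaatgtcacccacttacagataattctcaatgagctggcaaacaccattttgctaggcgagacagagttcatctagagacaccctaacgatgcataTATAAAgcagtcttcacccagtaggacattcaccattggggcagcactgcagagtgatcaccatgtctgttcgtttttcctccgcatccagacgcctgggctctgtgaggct
Krt72: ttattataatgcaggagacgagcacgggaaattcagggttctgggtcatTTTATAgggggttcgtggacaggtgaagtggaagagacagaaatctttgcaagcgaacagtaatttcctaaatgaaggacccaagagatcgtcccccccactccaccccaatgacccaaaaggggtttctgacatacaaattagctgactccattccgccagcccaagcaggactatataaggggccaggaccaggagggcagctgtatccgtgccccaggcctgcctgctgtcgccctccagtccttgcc
Krt73: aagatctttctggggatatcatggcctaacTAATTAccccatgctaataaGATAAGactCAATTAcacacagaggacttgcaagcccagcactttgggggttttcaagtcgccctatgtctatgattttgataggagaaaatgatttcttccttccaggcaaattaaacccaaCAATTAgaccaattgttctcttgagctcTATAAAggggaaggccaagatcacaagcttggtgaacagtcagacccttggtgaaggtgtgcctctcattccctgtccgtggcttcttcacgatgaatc

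TATAAA stood in the window of all 5 keratins, Krt71 included, and in 14.2% of the 33469 RefSeq promoters of this length. Counted from the annotated start, the match began at position -30 in Krt25, -34 in Krt71, -49 in Krt73 and -62 in Krt27. In Krt72 the only match lay on the opposite strand, at position -201. Only the exact run TATAAA was searched. The Krt72 window also holds the related run tatataa on the gene's strand, nearer the start, which was not counted. TAATTA was found in Krt25, Krt71 and Krt73, against 5.36% of all promoters, and CAATTA in Krt25 and Krt73, against 8.2%. GATAAG was found in Krt71 and Krt73, against 7.05% of all promoters. In Krt71 it directly follows the homeodomain core. None of the 5 windows held CTTTGA, the Lef/Tcf core searched beside them, which stood in 16.1% of all promoters. A match is a run of letters and not a measured binding site.

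All 4 measured keratins stood far higher in the vinclozolin pools at PND35 than in any other pool. This contrast is the one for which they were chosen, so it is described here without a test. Values are log2 intensities as the authors deposited them, and a difference of 1 is a doubling.

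Krt25, a type I chain, had 10.48 and 10.59 in the vinclozolin pools, against 4.98 and 5.03 in the control pools of that age. The difference was 5.53 (SE 0.13), or 46.2-fold on the deposited values, the highest of all 14324 genes. Whether the control level exceeds the probe set's background was not tested, and the same holds for the folds of the other 3 keratins. In the other 14 pools of the series it lay between 4.86 and 5.36, with a median of 5.07. The lower vinclozolin pool thus stood 5.11 above the highest other pool.

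Krt27, the type I chain with a like distribution in the sheath, had 9.77 and 9.51 in the vinclozolin pools and 5.49 and 5.62 in the control pools. Its difference was 4.09 (SE 0.11), or 17-fold. The other 14 pools lay between 5.42 and 5.8, a range of 0.38, and no other pool came near the vinclozolin values.

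Krt72, a type II chain of the sheath cuticle, had 10.4 and 9.52 in the vinclozolin pools, against 5.7 and 5.87 in the control pools (difference 4.17, SE 0.20, 18-fold). The other 14 pools held 5.59 to 5.93. Both vinclozolin pools were high, but they differed from each other by 0.88, more than the whole range of the other 14 pools.

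Krt73, the second type II cuticle chain, had 11.1 and 10.41 in the vinclozolin pools, against 6.4 and 6.55 in the control pools (difference 4.28, SE 0.17, 19.4-fold). The other 14 pools lay between 6.38 and 6.74. Among all genes the differences of Krt73, Krt72 and Krt27 ranked 4, 5 and 6. The median difference of the 4 keratins was 4.22, beside a median of -0.024 over all genes.

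In all, 4 of 4 keratins had both vinclozolin PND35 pools above every other pool, as did 260 of the 14324 genes (1.82%). All 4 did so by over 1 log2 unit, as did 37 genes in all (0.258%). In the limma test across all genes 1.17% passed an adjusted p of 0.05 in this comparison, 0.901% upward and 0.265% downward, and nothing is read from these shares for the keratins, which were chosen for it. The 167 genes behind that share became 788 when vinclozolin PND35 replicate 1 was left out. Leaving out a control PND35 pool gave 79 for replicate 1 and 62 for replicate 2. In control pools Krt25 and Krt27 averaged less than 5.661, a level that the means of 25% of probe sets fall short of, and no detection calls were used here. In bulk RNA, more cells of a type and more RNA per cell cannot be told apart.

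**Figure D1:**
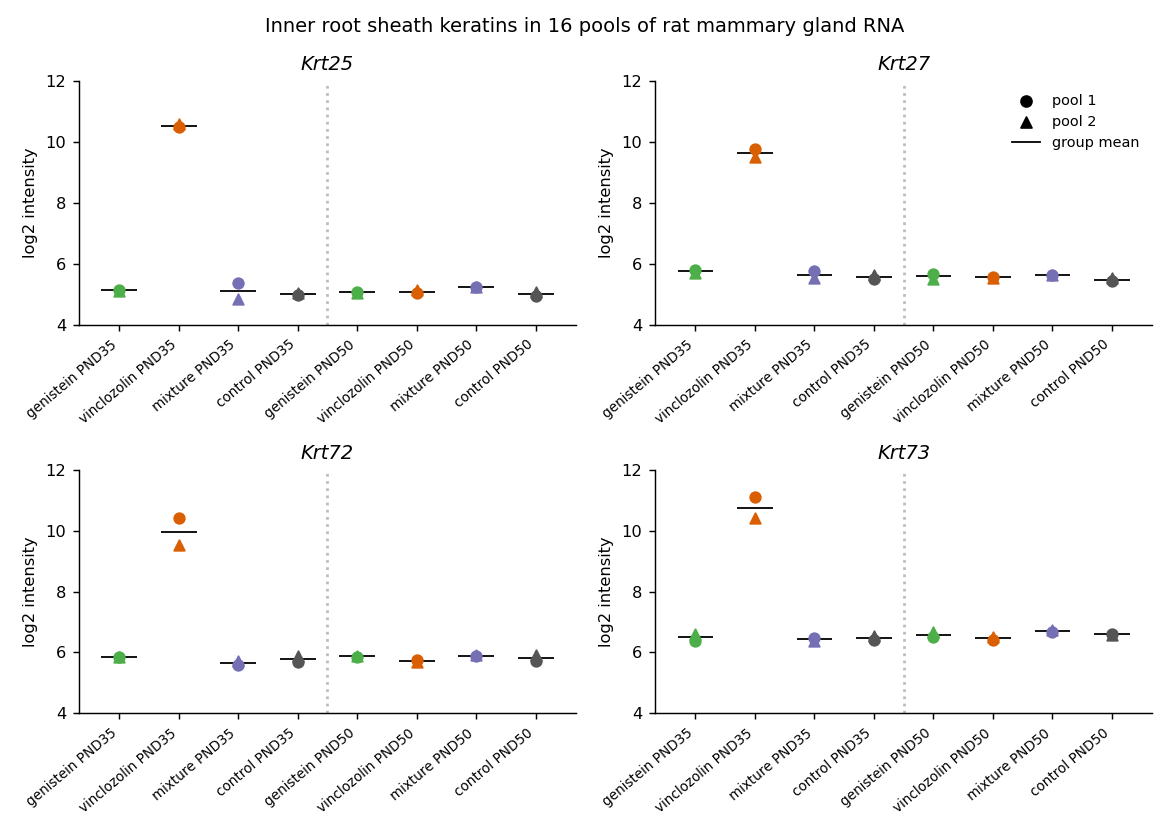
Log2 intensity (vertical axis) of Krt25, Krt27, Krt72 and Krt73 in the 8 groups, with circles for pool 1, triangles for pool 2 and a bar at the group mean. In every panel the vinclozolin PND35 pools stand at 9.51 or above, and the other 14 pools lie at 6.74 or below.

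The mixture pools of PND35, whose mothers had received the same vinclozolin dose, stood with the other groups. Krt25 had 5.36 and 4.86 in the mixture pools, against 10.48 and 10.59 with vinclozolin alone, a difference of -5.42 (SE 0.13). The mixture values of Krt27 were 5.77 and 5.52, those of Krt72 were 5.59 and 5.72, and those of Krt73 were 6.49 and 6.38. For these 3 genes the mixture minus vinclozolin differences were -4.00, -4.30 and -4.32. Genistein pools lay in the same low range, and the median vinclozolin minus genistein difference over the 4 keratins was 4.18. These differences are also descriptions, since they use the vinclozolin PND35 pools. Of all genes 1.96% passed in limma between mixture and vinclozolin at PND35, and 0.559% between vinclozolin and genistein.

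At PND50 the vinclozolin pools no longer stood apart. Krt25 had 5.03 and 5.15 in them at PND50, against 10.48 and 10.59 at PND35, and the median PND50 minus PND35 difference of the 4 keratins with vinclozolin was -4.26. In that contrast, again a description, 1.93% of all genes passed in limma. Against the controls of the same age, which had 4.95 and 5.06, Krt25 differed by 0.08 (SE 0.13, limma adjusted p = 0.96). Krt27 differed by 0.06 (SE 0.11), Krt72 by -0.11 (SE 0.20) and Krt73 by -0.13 (SE 0.17), with adjusted p between 0.952 and 0.97. None of the 4 passed, and 0% of all genes did (811 of 14324 at an unadjusted p under 0.05). The 95% intervals ran from -0.19 to 0.35 for Krt25 and from -0.54 to 0.33 for Krt72, so a difference of the size seen at PND35 lay outside them.

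Comparisons without the vinclozolin PND35 pools were tested for the keratins with limma over all genes. There were 12 such comparisons and 48 tests, of which 0 passed an adjusted p of 0.05 and 0 had an unadjusted p under 0.05. The smallest adjusted p was 0.22, and the log2 differences lay between -0.2 and 0.27.

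Genistein against control at PND35 gave Krt25 5.15 and 5.12 in genistein pools and 4.98 and 5.03 in control pools. The difference of 0.13 (SE 0.13, limma adjusted p = 0.783) was no larger than its error. Krt27 had 5.8 and 5.71 in genistein pools, against 5.49 and 5.62 in control pools, a difference of 0.20 (95% interval -0.03 to 0.43, adjusted p = 0.577). Krt25 and Krt27, 2 of 4, did not overlap between these groups, like 39.5% of all genes. Krt72 differed by 0.07 (SE 0.20) and Krt73 by 0.02 (SE 0.17). None of the 4 passed, and neither did any other gene (0%, with 1361 at an unadjusted p under 0.05).

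The mixture against control at PND35 gave 0.11 for Krt25 (SE 0.13), 0.09 for Krt27 (SE 0.11), -0.13 for Krt72 (SE 0.20) and -0.04 for Krt73 (SE 0.17). None passed in limma (adjusted p from 0.719 to 0.939), where 0.00698% of all genes did. The 95% intervals reached no further than -0.56 and 0.38. This comparison and that of genistein use the same control pools.

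At PND50 the mixture gave the highest values of the exposed groups for Krt25, 5.25 and 5.23 against 4.95 and 5.06 in the controls. The difference was 0.23 (95% interval -0.04 to 0.50, limma adjusted p = 0.765). Krt27 had 5.62 in both mixture pools and 5.42 and 5.54 in the control pools, and Krt73 had 6.67 and 6.74 against 6.6 and 6.59. These 3 of 4 keratins did not overlap between the groups, like 40.4% of all genes. None of the 4 keratins passed, and 0.0419% of all genes did. With genistein at PND50 the differences ran from -0.01 for Krt73 to 0.11 for Krt27, and 0% of all genes passed (389 at an unadjusted p under 0.05). The mixture minus vinclozolin (0.0419% of all genes called), mixture minus genistein at PND50 (0.0349%) and mixture minus genistein at PND35 (0%, 1647 at an unadjusted p under 0.05) called none of the 4 either.

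Age was tested in the control, genistein and mixture groups. In the controls Krt25 had 4.95 and 5.06 at PND50, against 4.98 and 5.03 at PND35, a difference of 0.00 (SE 0.13). None of the 4 keratins passed in the controls, where 0.496% of genes did, with genistein, where 1.11% did, or with the mixture, where 27.7% did. These shares depend on single pools. The 71 genes in the controls became 1 without control PND50 replicate 2, and lay between 2 and 31 when another control pool was left out. The 159 with genistein became 2 without genistein PND35 replicate 2, and none passed without genistein PND50 replicate 1. The 3968 with the mixture became 1414 without mixture PND50 replicate 2 and 1416 without mixture PND35 replicate 2. Averaged over the 3 treatments, 35.1% of all genes passed and none of the 4 keratins did. Krt73 came closest, with 0.16 (SE 0.10, limma adjusted p = 0.22).

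The residual spread behind these tests includes the vinclozolin PND35 pools, which differ for the type II keratins. Without those pools the residual SD was 0.08 in place of 0.23 for Krt72 and 0.09 in place of 0.19 for Krt73. It was 0.14 in both fits for Krt25. In that fit Krt73 passed for age in the average (0.16, SE 0.05, limma adjusted p = 0.0364, 37.3% of all genes called) and in the mixture (0.27, SE 0.09, adjusted p = 0.0461, 30% of all genes called). The same held without either vinclozolin PND35 pool alone. Krt73 was then 1 of 4 keratins past the threshold, a share of the keratins no higher than that of all genes, beside 30% and 37.3%. In the mixture Krt73 had 6.67 and 6.74 at PND50, against 6.49 and 6.38 at PND35, without overlap. There 2 of 4 keratins, Krt72 and Krt73, did not overlap between the ages, like 70.9% of all genes. Over the 3 treatments together the pools of both ages overlapped for Krt73. The other 46 of the 48 tests did not pass in that fit. Without mixture PND35 replicate 1, which had the higher Krt25 value of its pair, Krt25 passed for age in the mixture (0.38, SE 0.09, adjusted p = 0.0186, 18.1% of genes called).

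**Figure D2:**
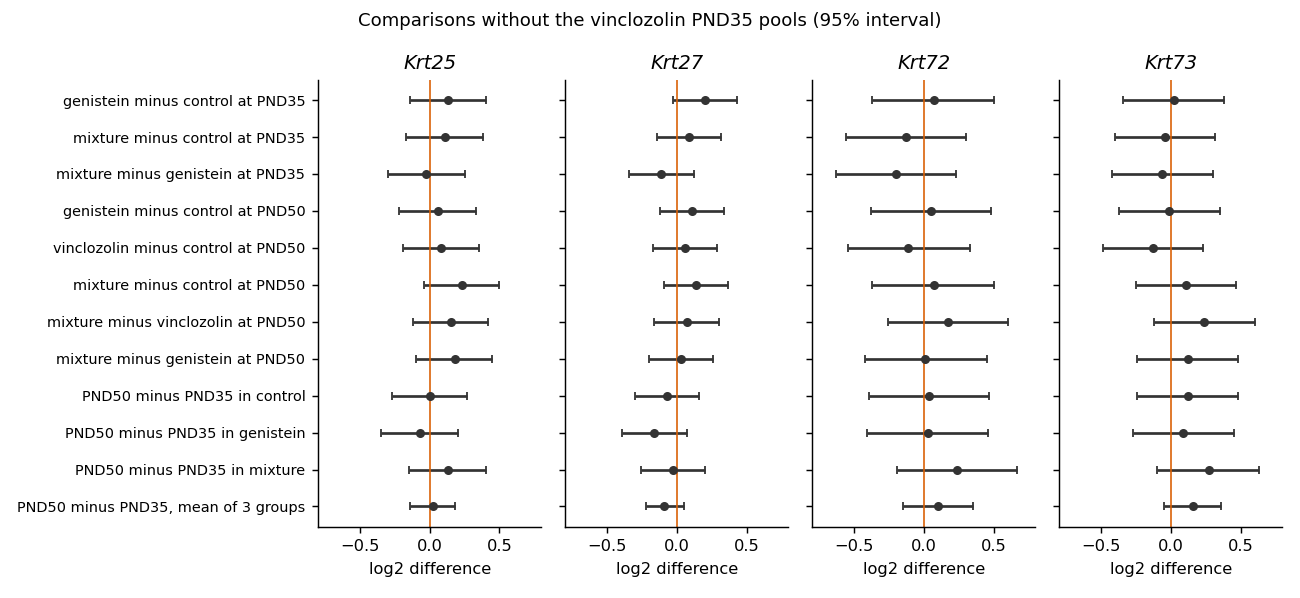
Log2 difference (horizontal axis) with its 95% interval for Krt25, Krt27, Krt72 and Krt73 in the 12 comparisons that leave out the vinclozolin PND35 pools. All points lie between -0.2 and 0.27 and every interval includes 0.

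Among the 14 pools other than vinclozolin PND35, the keratins varied little. The SD over these pools was 0.13 for Krt25, 0.11 for Krt27, 0.1 for Krt72 and 0.11 for Krt73, beside a median of 0.12 over all genes. Pearson's r between Krt25 and Krt27 was 0.997 over the 16 pools and 0.668 over these 14. For Krt72 and Krt73 it was 0.998 over 16 and 0.572 over 14, and for Krt25 and Krt72 it was 0.988 over 16 and -0.007 over 14. The high values over 16 pools rest on the 2 vinclozolin PND35 pools, and the pools share groups and processing, so these are descriptions only.

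The neighbours of the keratins on the chromosome differed in whether they were high. On chromosome 10 the genes Krt25, Krt26, Krt27 and Krt28 follow each other, and the 2 that were not chosen also rose with vinclozolin at PND35. Krt26, a type I keratin of the sheath cuticle, had 8.9 and 7.85 in vinclozolin pools, against 5.17 and 5.43 in control pools (3.08, SE 0.26, limma adjusted p = 2.85e-05). Krt28, a type I keratin of the whole sheath, had 9.13 in both vinclozolin pools, against 6.35 and 6.22 in control pools (2.84, SE 0.09, adjusted p = 4.61e-09). Next to Krt25 on the other side, Krt24 differed by 0.11 (SE 0.09, adjusted p = 0.681), and Smarce1, a chromatin remodelling subunit beyond it, by 0.07 (SE 0.06). Beyond Krt28, Krt10, a keratin of the upper epidermis, had 1.45 (SE 0.38, adjusted p = 0.107), and Krt12, a keratin of the cornea, had 0.02 (SE 0.08). Farther along the cluster Krt23 rose by 0.72 (SE 0.14, adjusted p = 0.0356) and Krt39, a hair keratin, by 1.03 (SE 0.11, adjusted p = 0.00037). On chromosome 7 the gene beside Krt73 is Krt2, an epidermal keratin, which differed by -0.04 (SE 0.12, adjusted p = 0.934). Past it stand Krt1 at 1.63 (SE 0.46, adjusted p = 0.136) and Krt77 at 1.09 (SE 0.32, adjusted p = 0.144), which did not pass. On the other side, the genes nearest to Krt72 are Krt71, Krt5 and Krt6a, which were not measured here. Probe sequences were not used here, so signal shared between probe sets of these related genes could not be separated. These neighbours were named after their values were seen.

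**Figure D3:**
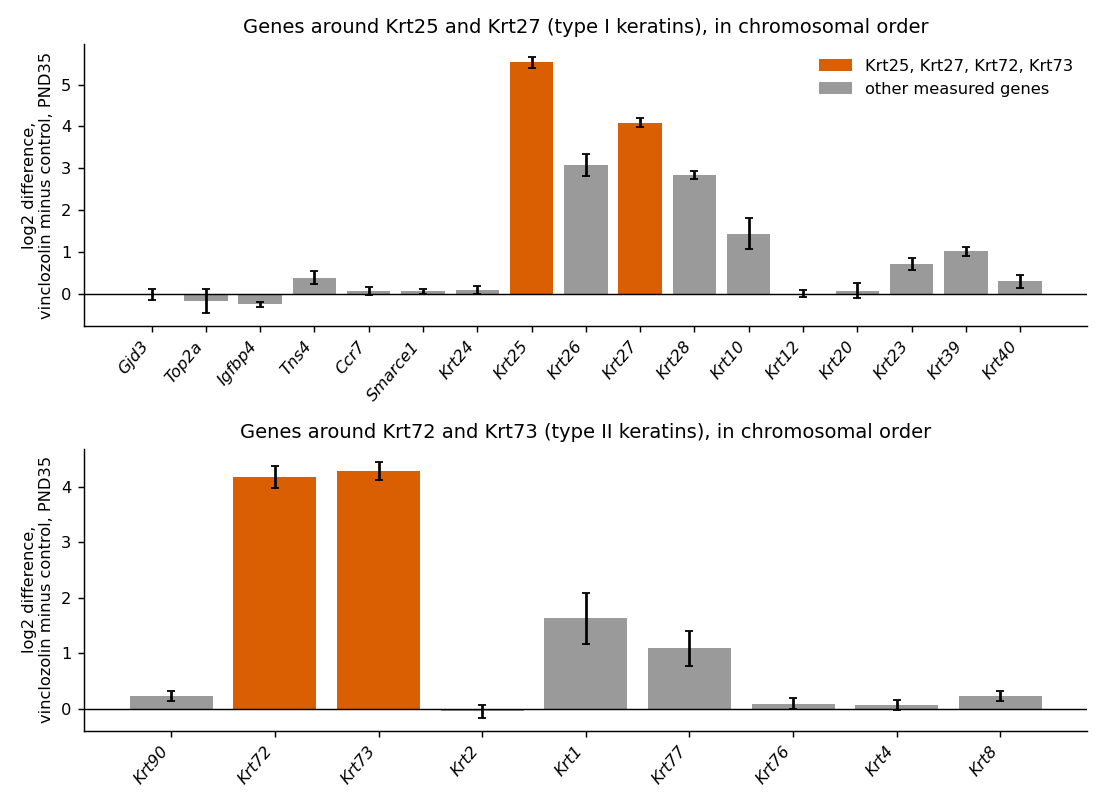
Vinclozolin minus control at PND35 on the log2 scale (vertical axis, error bars are the SE of the fit) for the measured genes around Krt25 and Krt27 and around Krt72 and Krt73, in chromosomal order. The bars of Krt25 to Krt28, between 2.84 and 5.53, lie between Krt24 at 0.11 and Krt10 at 1.45. Next to Krt73 stand Krt2 at -0.04, Krt1 at 1.63 and Krt77 at 1.09.

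Other genes of the inner root sheath were higher in the same pools. Of 11 listed, 8 were measured and all 8 were positive with vinclozolin at PND35 (median 0.83, beside -0.024 over all genes). In limma 4 of the 8 rose and none fell, where 0.901% of all genes rose. Besides Krt26 and Krt28 these were Tgm3, a transglutaminase that crosslinks sheath and shaft proteins, with 7.86 and 7 in vinclozolin pools and 5.95 and 5.65 in control pools (1.63, SE 0.21). The fourth was Padi3, which converts arginine to citrulline in trichohyalin, with 7.25 and 6.58 against 5.82 and 5.66 (1.17, SE 0.15, adjusted p = 0.00189). Gata3, a transcription factor needed for the sheath lineage in mice and also made by luminal mammary cells, had 0.26 (SE 0.13, adjusted p = 0.433), and Dlx3, a homeodomain factor of the follicle, had 0.49 (SE 0.17, adjusted p = 0.225). The mean level of the list was 8.62 and 8.2 in the vinclozolin pools and between 7.08 and 7.3 in the other 14.

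Genes of the hair shaft rose beside the sheath. Of 14 measured hair shaft keratins 11 rose and none fell (median 1.42), and all 14 were positive. Krt31, a type I keratin of the hair cortex, had 9.93 and 9.02 in vinclozolin pools, against 6.33 and 6 in control pools (3.31, SE 0.24, limma adjusted p = 5.7e-06). Krt85, a type II keratin made early in the shaft, had 10.39 and 9.99, against 6.94 and 7 (3.22, SE 0.14). Krt33b rose by 2.72 (SE 0.24) and Krt35 by 2.42 (SE 0.19). No other pool reached the vinclozolin values of these 4 genes. The calls of Krt36 and Krt82, 2 of the 11, were lost without either control PND35 pool.

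Among 10 measured regulators and adhesion genes of the shaft 4 rose. Dsg4, a desmosomal cadherin of the shaft, rose by 3.30 (SE 0.20) and S100a3, a calcium-binding protein of the hair cuticle, by 3.32 (SE 0.19). Foxn1, the transcription factor whose loss causes the nude phenotype in mice and rats, had 7.77 and 7.41 in vinclozolin pools and 6.14 and 6.12 in control pools (1.45, SE 0.11, limma adjusted p = 1.37e-05). The zinc finger factor Ovol1, made in differentiating epidermis and follicles, rose by 1.28 (SE 0.11). Lef1, a mediator of Wnt signalling in the hair matrix, had 0.81 (SE 0.18, adjusted p = 0.0525).

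Some listed genes of the outer layers and of the epidermis rose too. Krt17, a keratin of the outer root sheath and of basal mammary cells, had 9.8 and 10.04 in vinclozolin pools, against 7.57 and 6.8 in control pools (2.74, SE 0.21, limma adjusted p = 1.29e-05). Krt16 rose by 1.48 (SE 0.23), which made 2 of 6 measured genes of the outer root sheath and companion layer. The call of Krt16 was lost without control PND35 replicate 2. Of 9 measured genes of the epidermis between follicles 4 rose and none fell: Klk7, a protease of skin shedding, by 3.68 (SE 0.62), Calml3 by 1.89 (SE 0.32), Sbsn by 1.43 (SE 0.08) and Trex2 by 1.07 (SE 0.10). The epidermal keratins of that list, Krt1 (1.63), Krt10 (1.45), Krt77 (1.09) and Krt2 (-0.04), did not pass, nor did Ivl (0.49). Elovl3, which elongates fatty acids in sebaceous glands, was the 1 of 7 sebaceous genes that rose (1.55, SE 0.30, adjusted p = 0.0289). Of these 7 genes 4 were negative, and the list's median was -0.12. Soat1 (1.41) and Mc5r (0.92) were positive but did not pass. The list's mean level was 9.99 and 10.17 in the vinclozolin PND35 pools and between 9.38 and 9.67 in the other 14. The calls of Klk7, Calml3 and Elovl3 were lost without either control PND35 pool, and those of Klk7 and Elovl3 also when limma's variance was fitted with an intensity trend. With 1 pool left out Klk7 lay between 2.2 and 5.16, Calml3 between 1.14 and 2.63 and Elovl3 between 0.87 and 2.23, in each case set by which vinclozolin PND35 pool was left out. Krt16 lay between 0.98 and 1.99, set by the same pools. Fewer epidermal genes were called without either control PND35 pool alone, and more without vinclozolin PND35 replicate 2. More sebaceous genes were called without vinclozolin PND35 replicate 1, where calls over all genes rose too.

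Few genes of the lists of other cells passed. Of 12 dermal papilla genes none passed in limma (median -0.25). Of the 12, 9 were negative, the lowest Fgf10, a growth factor, at -0.81 (SE 0.21, adjusted p = 0.0927). The highest were Alpl at 0.69 (SE 0.29), with 9.08 and 10.33 in vinclozolin pools against 9.04 and 9 in control pools, and Bmp4 at 0.31 (SE 0.16). None of 8 melanocyte genes passed (median -0.02), and Tyr, the key enzyme of pigment synthesis, stood at 4.6 and 4.58 in vinclozolin pools and 4.64 and 4.57 in control pools. Of 10 basal and myoepithelial genes 1 rose, Krt14, a keratin shared by basal mammary cells, epidermis and outer root sheath (1.85, SE 0.26, adjusted p = 0.00339). Its call was lost without control PND35 replicate 2 (1.48). None of 18 luminal epithelium, 10 adipocyte or 10 skeletal muscle genes passed, with medians of 0.23, -0.26 and -0.19. Without vinclozolin PND35 replicate 1 some dermal papilla, basal, luminal and adipocyte genes passed, but calls over all genes rose there too. Mammary and fat markers were present in all 16 pools, with Krt8 between 9.65 and 10.1 and Adipoq between 12.46 and 12.87, both markers of the labelled tissue.

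**Figure D4:**
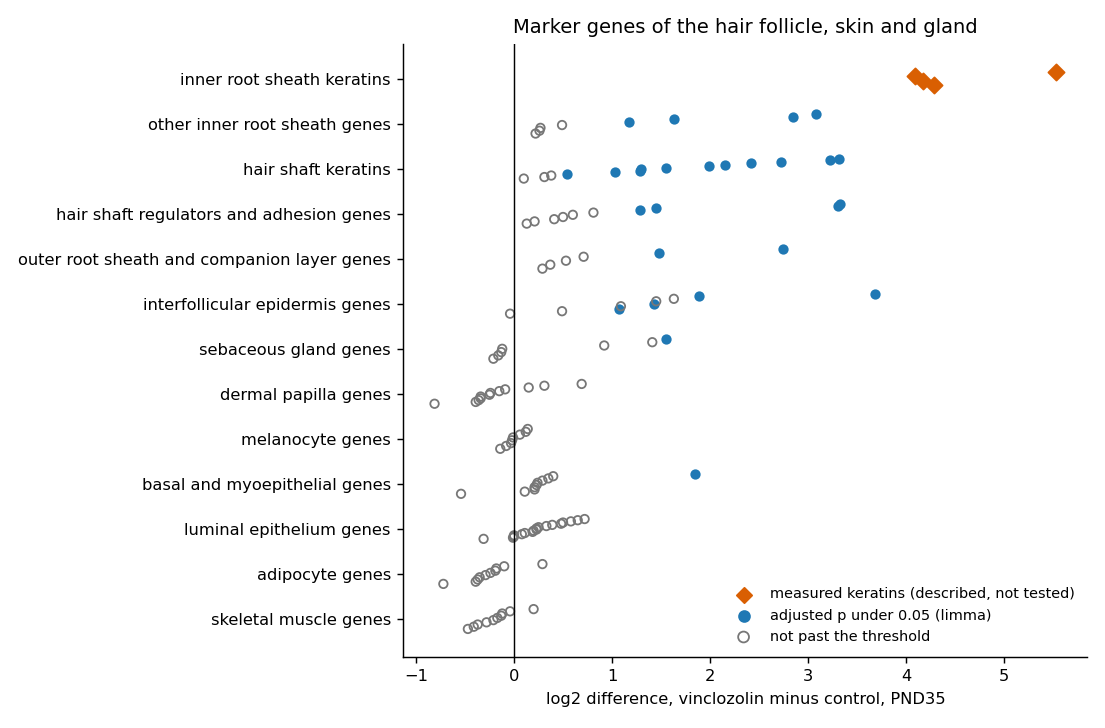
Vinclozolin minus control at PND35 on the log2 scale (horizontal axis) for the 4 measured inner root sheath keratins (diamonds) and for genes of 12 marker lists (filled where limma's adjusted p is under 0.05). The keratins lie between 4.09 and 5.53, to the right of every listed gene, and the 27 filled points include 11 hair shaft keratins.

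The mean level of the epidermis list was 7.68 and 7.49 in the vinclozolin PND35 pools and between 6.13 and 6.31 in the other 14, and that of the hair shaft keratins was 8.14 and 7.47 against 6.05 to 6.31. Of the 9 epidermal genes 5 were higher in vinclozolin PND35 pool 1 and 4, those called, in pool 2. The median of pool 1 minus pool 2 was 0.36. Krt27, Krt72 and Krt73 were higher in pool 1, and Krt25 was lower there (-0.12). The part of skin or follicle tissue in the pools was not tested. In the mixture and genistein comparisons at PND35 and in vinclozolin at PND50, 0 of the 122 listed genes passed in limma. At an unadjusted p under 0.05 there were 18, 30 and 17 of them, beside 1989, 1361 and 811 of all 14324 genes. All 10 measured skeletal muscle genes were positive in each of these comparisons, with medians of 1.3, 0.58 and 1.75. The medians over all genes were -0.02, 0.028 and -0.02. The mean level of the muscle list lay between 6.49 and 10.88 in the 14 pools other than vinclozolin PND35. The cause of that spread was not tested.

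The vinclozolin PND35 pools were alike for some sheath keratins and unlike for others. Pool 1 minus pool 2 was -0.12 for Krt25, 0.26 for Krt27 and 0.00 for Krt28, keratins of the whole sheath in human follicles. It was 0.88 for Krt72, 0.69 for Krt73 and 1.05 for Krt26, keratins of the sheath cuticle there. These groups were formed after the values were seen, and with 1 pair of pools the difference has no test. All 14 hair shaft keratins were higher in pool 1, by 0.26 to 1.04 (median 0.64). In the other 7 groups the median pool difference of that list lay between -0.13 and 0.06.

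Epidermal and sebaceous genes split between the same pools in both directions. Krt1, a keratin of the upper epidermis, had 7.6 in pool 1 and 5.39 in pool 2, and Krt10, its partner, had 8.33 and 6.56. Klk7 had 8.67 in pool 1 and 11.64 in pool 2, and Soat1, an enzyme of cholesterol ester storage, had 8.18 and 10.87. Over all genes the SD of the difference was 0.306 in this pair of pools, against 0.165 to 0.205 in the other groups. The fit takes 1 spread over all groups. Where these pools differ, as for Krt26 (1.05), SEs and p-values of comparisons with them may thus be too small.

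**Figure D5:**
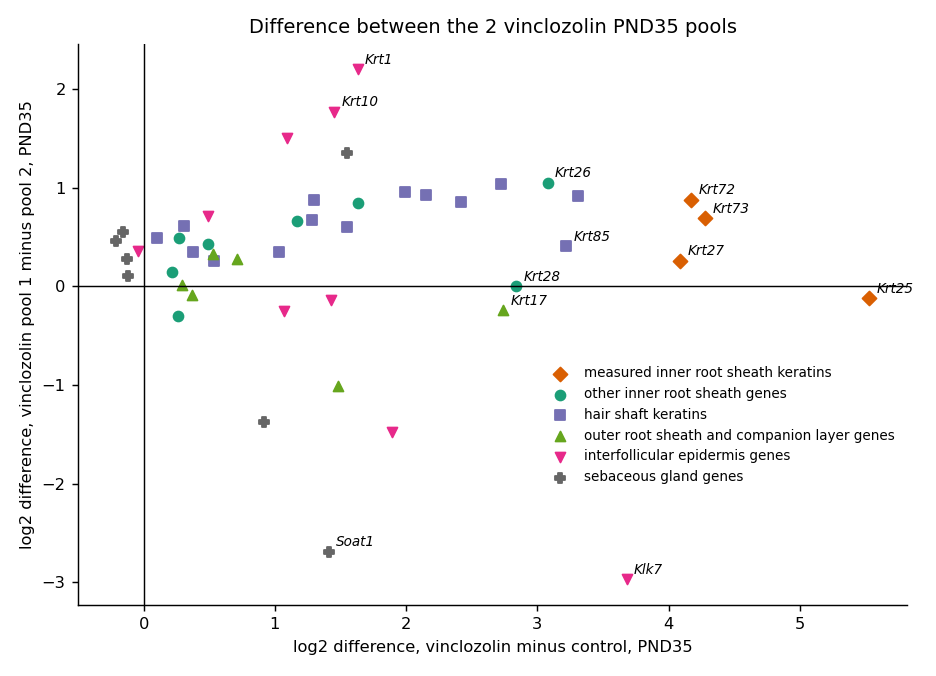
Vinclozolin pool 1 minus pool 2 at PND35 (vertical axis, log2) against vinclozolin minus control at PND35 (horizontal axis, log2) for the 4 measured inner root sheath keratins and genes of 5 lists. Krt25 and Krt28 lie at about 0 on the vertical axis, Krt72, Krt73 and Krt26 lie between 0.69 and 1.05, and Klk7 lies at -2.97.

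The genes most like the 4 keratins over the 16 pools, by Pearson's r with their mean centred value, were Cnfn (r = 0.9965), Dsg4, Krt85, Krt87, Krt28, Krtap1-5, S100a3, Gsdma, Pinlyp and Krt31 (r = 0.9852). These r rest on the 2 vinclozolin PND35 pools for which the keratins were chosen. Cnfn, a component of the cornified envelope, had 9.14 and 8.95 in the vinclozolin PND35 pools and at most 6.45 elsewhere. Krtap1-5, a keratin-associated protein of the hair shaft, had 10.48 and 9.7, and at most 6.83 elsewhere. Gsdma, a gasdermin of skin, had 7.78 and 7.81, and at most 5.66 elsewhere. Over the 14 pools without vinclozolin PND35 the 5 highest included 1 of these 10, Dsg4 (r = 0.8527), followed by Epyc, Akap7, Nfkbiz and Or4l1 (r = 0.8076). Of these, Epyc, Akap7, Nfkbiz and Or4l1 differed by -0.1 to 0.11 with vinclozolin at PND35 and did not pass in limma.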

How the data were processed

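Mammary gland RNA of 16 pools, each of 5 rats, was hybridised to Affymetrix arrays. The deposited table gives 1 value for each of 27342 probe sets and 16 arrays, between 2.2 and 13.95, read as log2 intensities from that range. For the log base, background correction, normalization and summarization by the authors, the labels name nothing. The arrays had medians of 7.05 to 7.145 and were used without another normalization.

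Probe sets with 1 symbol in the platform annotation (15097, while 323 had several and 11922 were unlisted) gave 14324 symbols. The probe set with the highest mean was kept for each. Gene identifiers of 15067 matched RefSeq's gene table (GRCr8), used for names and gene order. Its promoter table, of the same build, gave windows for all 5 keratins. No filter on low values was used, so that no keratin entered only through the pools where it is high.

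Groups and replicate numbers came from the sample titles. Tests used limma 3.58.1 in R 4.3.3 (lmFit, eBayes) with a mean for each group, fitted to 16 arrays (8 residual degrees of freedom), two-sided, and Benjamini-Hochberg adjustment over all genes at 0.05. Figures used matplotlib 3.10.9 in Python 3.11.15. The fit was tested on simulated data. The keratins and the 12 lists (156 genes, 122 measured) were chosen with earlier results of these data known, so list counts are not independent evidence. Named from each list with calls were up to 4 called genes with the largest change, besides the genes most correlated with the keratins. Of the lists with none called, only that of the dermal papilla had its 2 highest genes named. Krt8 and Adipoq were named as tissue markers, outside this rule. The chromosomal neighbours and Gata3, Dlx3, Lef1, Fgf10, Tyr, Krt1, Krt10, Ivl, Mc5r and Soat1 were named after their values were seen. Replicate numbers were not taken to pair the pools. Deviations of same-numbered pools correlated between -0.327 and 0.259 (median 0.035), over 0.1 in 8 of 28 pairs of groups. This check over all genes cannot exclude a pairing in some groups. Alternatives were filters, normalizations, probe set choices, array weights, the replicate number as a block, a trend with intensity, other thresholds and each pool left out.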

Additional observations from a re-analysis of the deposited data

Results flagged for a closer look

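Krt73 differed from control by 4.28 with vinclozolin at PND35 and by -0.13 at PND50. At PND50 it had 6.42 and 6.51 in vinclozolin pools, against 6.6 and 6.59 in control pools. The difference of -0.13 (SE 0.17, limma adjusted p = 0.952) did not pass and was smaller than its SE. Krt72 was also negative at PND50 (-0.11), and Krt25 (0.08) and Krt27 (0.06) were positive. The difference between the ages was not tested, since the PND35 pools were used to choose the gene.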

How the results depend on the processing

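The median vinclozolin minus control difference of the 4 measured keratins at PND35 (4.22) was 4.19 with quantile normalization and 4.22 with median centring, averaged probe sets, all probe sets, array weights and the replicate block. With 1 pool left out it lay between 3.95 (without vinclozolin PND35 replicate 1) and 4.61 (without vinclozolin PND35 replicate 2). The corresponding ranges were 3.84 to 4.57 for vinclozolin minus genistein, -4.7 to -3.92 for mixture minus vinclozolin and -4.65 to -3.96 for PND50 minus PND35 with vinclozolin. The number of keratins called in the 12 tested comparisons stayed at 0 under the alternatives run, with these exceptions. It was 1 (Krt73) for age in the mixture and in the average over 3 treatments without both vinclozolin PND35 pools or without either, and 1 (Krt25) for age in the mixture without mixture PND35 replicate 1. With 1 pool left out, these counts lay between 0 and 1. The smaller residual SD given above belongs to the Krt73 calls, and the cause of the Krt25 call was not tested. Krt25 and Krt27 passed the 25th percentile filter (5.661) with means of 5.77 and 6.11 over the 16 pools. Over the 14 pools without vinclozolin PND35 their means were 5.09 and 5.6. Their counts under that filter thus rest on the pools where they are high. No keratin passed the 50th percentile filter, so that filter gives no value for them. Of the 122 listed genes 27 were called with vinclozolin at PND35, 8 with that filter, which leaves fewer genes to test, and 29 with the replicate block. That count lay between 20 and 44 with 1 pool left out, the highest without vinclozolin PND35 replicate 1. With genistein at PND35 the count of 0 rose without genistein PND35 replicate 2, where calls over all genes rose too. No direction of a called value turned. The replicate block changed no keratin call, and since the numbers were not taken to pair the pools it is only an alternative. With 2 pools per group and a median SE of 0.13 for the keratins, small differences could not be seen.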
